A study of Mus musculus with 18 samples.

Results

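The 10 NRF2 oxidative stress defence genes are Nfe2l2, Keap1, Hmox1, Srxn1, Nqo1, Gclc, Gclm, Txnrd1, Slc7a11 and Osgin1. They are the gene of the transcription factor NRF2, the gene of its inhibitor KEAP1 and 8 classical NRF2 target genes, and they were taken by symbol from the deposited table. All 10 were found among its 19094 protein-coding genes, and all 10 passed the filter on low counts in every comparison. The study compared heart cells of mice that carry a Bag3-P209L transgene (Tg+) with heart cells of Bag3-WT mice. BAG3 is a co-chaperone of HSP70 that takes part in the removal of damaged muscle proteins. Tg+ cardiomyocytes came from 3 mice aged 16 months, Bag3-WT cardiomyocytes from 3 mice of the same age, and cardiac fibroblasts from the same 3 Tg+ and 3 Bag3-WT mice. The sources used here name neither the promoter nor the species of the transgene, nor how the cells were purified. Each mouse gave 2 cardiomyocyte samples (rep1 and rep2, called libraries below), whose counts were summed, and 1 fibroblast library. Thus 18 libraries became 12 columns, and the mouse was the unit of replication. The labels do not say whether rep1 and rep2 are 2 libraries or 2 rounds of sequencing of 1 library.

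In resting cells KEAP1 binds NRF2 and hands it to a ubiquitin ligase, so that little NRF2 protein is present. Oxidants and electrophiles modify cysteines of KEAP1, after which NRF2 builds up, pairs with a small MAF protein in the nucleus and binds antioxidant response elements near its target genes. The targets make and recycle glutathione, keep thioredoxin and peroxiredoxins reduced, detoxify quinones and break down heme. In macrophages HMOX1 also degrades the heme of engulfed red blood cells. NRF2 is controlled mostly at the protein level, which RNA sequencing does not measure.

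The deposited values were expected counts, that is estimated read counts per gene. Levels are given below as CPM, the counts of a gene in 1e6 counts of its column, after TMM scaling over the 12 columns. The columns held 10.9 to 17.2 M counts (M, 1e6) in cardiomyocytes and 17.3 to 61.3 M in fibroblasts. The mitochondrial genome took 51.7 to 85.5% of them in cardiomyocytes and 16.7 to 74.2% in fibroblasts, which left 2.26 to 7.79 M and 11.3 to 15.8 M nuclear counts. A floor of 3 counts stood for 0.118 to 0.445 CPM in cardiomyocytes and 0.0825 to 0.111 CPM in fibroblasts, and covers counting error only. All 13 cardiomyocyte markers were higher in the cardiomyocyte columns, with summed levels of 1349 to 3636 CPM against 528 to 1363 CPM in fibroblasts. Fibroblast markers did not separate the preparations, at 3745 to 9822 CPM in cardiomyocytes and 2013 to 7482 CPM in fibroblasts, with 2 of 13 higher and 1 lower in cardiomyocytes. "Cardiomyocytes" and "fibroblasts" below are therefore the names of preparations that held both kinds of RNA. The cardiomyocyte columns of Tg mouse 3, whose animal code holds the letter F, held 62 counts of the Y-linked gene Ddx3y and 172 of Eif2s3y. The other 2 cardiomyocyte columns with that letter held 0 of Ddx3y and 19 and 24 of Eif2s3y, and its own fibroblasts held 0 of both. These counts go against the letter, while 0 counts of Uty and 1 of Kdm5d, against 21 to 36 and 9 to 16 in the cardiomyocyte columns with the letter M, do not. The main counts and the genotype results that this mouse moves most are given with and without it.

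Promoter sequences of 8 members were matched in RefSeq (GRCm38.p6, 250 bases before to 50 bases after each annotated start). Hmox1 and Gclc were not matched. Parts of the promoters are shown because the members share a transcription factor whose DNA element is known. The core of the antioxidant response element was searched as TGACNNNGC on both strands (GCNNNGTCA on the opposite strand). It was found in 4 of the 8 members (50%), against 3781 of 27025 genes with a promoter in the table (14.0%). Counted by window, since Txnrd1 has 3, these were 4 of 10 and 4071 of 32851 (12.4%). The other NRF2 target genes listed for this work held it in 12 of 33 (36.4%), genes listed for NRF2 regulation in 4 of 17 (23.5%), and other antioxidant enzymes in 2 of 20 (10%). The match in Nfe2l2 starts 240 bases before the start, that in Gclm 134 bases and that in Txnrd1 92 bases before it, in 1 of the 3 annotated Txnrd1 promoters. The match in Srxn1 starts 28 bases after the start. A match is a run of letters and not a measured binding site, and other forms of the element were not searched. The windows follow, 5′ to 3′ on the strand of the gene, with the matched letters in capitals.
Nfe2l2 chr2:75704869-75704913, minus strand: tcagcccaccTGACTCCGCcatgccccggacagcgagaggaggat
Srxn1 chr2:152105546-152105566, plus strand: tgggcaGCTAGGTCAgagtga
Gclm chr3:122245397-122245457, plus strand: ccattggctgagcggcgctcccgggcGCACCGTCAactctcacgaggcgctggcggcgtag
Txnrd1 chr10:82859088-82859148, plus strand: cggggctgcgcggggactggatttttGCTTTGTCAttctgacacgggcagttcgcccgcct
The Nfe2l2 match reads on the strand of the gene, and the other 3 read on the opposite strand.

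Between the cell types, 8 of the 10 members were lower in cardiomyocytes than in fibroblasts of the same 6 mice, and 2 were higher. Hmox1, Srxn1 and Slc7a11 differed most, by 40.8-fold to 99.8-fold, followed by Txnrd1 (14.0-fold), Osgin1, Gclc, Gclm and Nfe2l2 (4.06-fold to 7.25-fold). Keap1 and Nqo1 were higher in cardiomyocytes, by 1.57-fold and 2.37-fold. Of all 13891 genes tested within mice (edgeR, mouse as block, adjusted p < 0.05), 24.9% were lower and 19.7% were higher in cardiomyocytes. The members' median log2 fold change was −2.79, against −0.04 over all genes tested. Without Tg mouse 3 the counts were 8 lower and 2 higher, with a median of −3.05. Cell type, isolation and the mix of cells in each preparation cannot be told apart in this design. In bulk samples, fewer cells of a type and less RNA per cell cannot be told apart either.

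**Figure D1:**
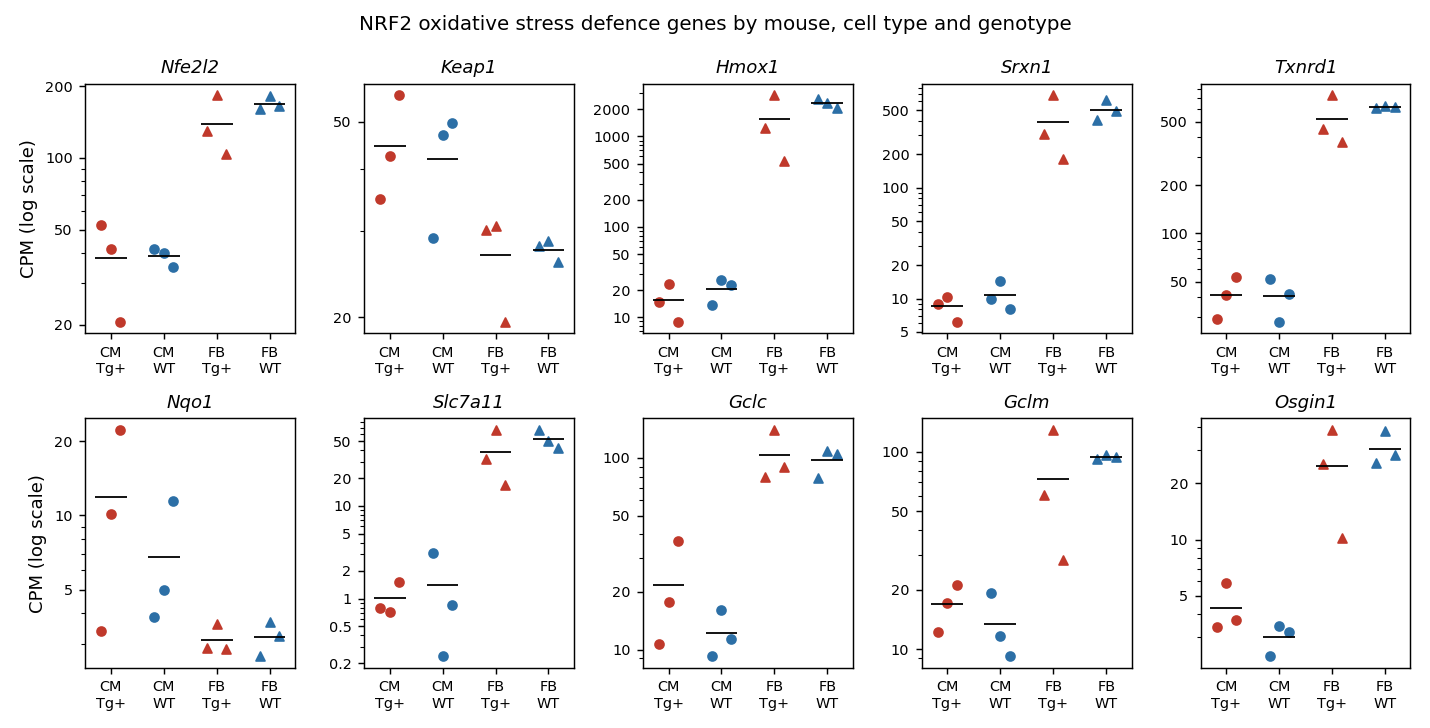
Level of each member in CPM (log axis, a separate scale for each gene) in cardiomyocytes (CM, circles) and fibroblasts (FB, triangles) of Tg+ (red) and Bag3-WT (blue) mice. Each point is 1 mouse and each bar the mean of 3 mice. The cell types do not overlap for 8 members and overlap for Keap1 and Nqo1, while the genotypes overlap for all 10 in both cell types. The share of all genes that overlap in the same way was not counted.

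Of the regulators, Nfe2l2 (ENSMUSG00000015839.6, chromosome 2, 75675513 to 75704641, minus strand), which encodes NRF2, had 52.6, 41.6 and 20.6 CPM in Tg+ cardiomyocytes and 41.6, 40.04 and 35.0 CPM in Bag3-WT cardiomyocytes. Fibroblasts held 130, 184 and 104 CPM in Tg+ mice and 160, 181 and 165 CPM in Bag3-WT mice. Every fibroblast value lay above every cardiomyocyte value. The log2 fold change of cardiomyocytes over fibroblasts was −2.02 (standard error, SE, 0.20, edgeR adjusted p = 2.14e-05, n = 6 mice, lower in 6 of 6).

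Keap1 (ENSMUSG00000003308.15, chromosome 9, 21229730 to 21239361, minus strand), the sensor that holds NRF2 down, had 34.8, 42.5 and 56.6 CPM in Tg+ cardiomyocytes and 29.0, 47.0 and 49.7 CPM in Bag3-WT cardiomyocytes. Fibroblasts held 30.1, 30.6 and 19.6 CPM in Tg+ mice and 27.9, 28.6 and 25.9 CPM in Bag3-WT mice. The cell types overlapped, because WT mouse 1 had 29.0 CPM in cardiomyocytes, yet Keap1 was higher in cardiomyocytes in 6 of 6 mice (log2 fold change 0.65, SE 0.21, edgeR adjusted p = 0.0281). The call was lost without Tg mouse 2 (0.68, edgeR adjusted p = 0.0579), WT mouse 2 (0.63, adjusted p = 0.0679) or WT mouse 3 (0.59, adjusted p = 0.0917), and in the authors' normalized table (0.69, limma adjusted p = 0.0837). With library size as the only scaling, where the median of all genes moved to −0.95, Keap1 turned to −0.25, which is 0.70 above that median. The ratio of Nfe2l2 counts to Keap1 counts ran from 0.364 to 1.51 in cardiomyocytes and from 4.33 to 6.36 in fibroblasts.

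Hmox1 (ENSMUSG00000005413.8, chromosome 8, 75093621 to 75100589, plus strand) encodes the inducible heme oxygenase, which opens heme and frees its iron. It had 14.7, 23.1 and 8.93 CPM in Tg+ cardiomyocytes and 13.7, 25.9 and 22.5 CPM in Bag3-WT cardiomyocytes. Fibroblasts held 1227, 2869 and 539 CPM in Tg+ mice and 2615, 2333 and 2064 CPM in Bag3-WT mice. The lowest fibroblast value, in Tg mouse 3, was still above all cardiomyocyte values. The log2 fold change was −6.64 (SE 0.30, edgeR adjusted p = 3.91e-07, lower in 6 of 6 mice), the largest of the 10 members. Hmox1 alone made up 3.86 to 13.5% of the members' summed counts in cardiomyocytes, against 39.6 to 64.0% in fibroblasts.

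Macrophage and erythroid markers were mostly lower in cardiomyocytes, as Hmox1 was, and neutrophil and lymphocyte markers in part. Of all genes tested 24.9% were lower and 19.7% higher. The log2 fold change was positive for 1 of 13 macrophage and 3 of 8 lymphocyte markers, none of them called. Of 13 macrophage markers, 12 were lower in cardiomyocytes and none was at 0 in any column, with summed levels of 454 to 1661 CPM in cardiomyocytes and 2293 to 7436 CPM in fibroblasts. Of 7 markers of red pulp macrophages and iron recycling, 6 were lower, with sums of 31.2 to 155 CPM in cardiomyocytes (up to 3 of the 7 at 0) and 242 to 767 CPM in fibroblasts (none at 0). The 2 lists are not separate, since Cd163 is in both. Among the 7, Vcam1 (216 CPM) and Cd163 (184 CPM) had the highest fibroblast means, and Spic had 32.0 CPM. All 5 erythroid genes, which encode globins and the first enzyme of heme synthesis in red cells, were lower, with sums of 26.8 to 3030 CPM in cardiomyocytes and 63.8 to 5544 CPM in fibroblasts. Of them 1 was at 0 in Tg mouse 3 cardiomyocytes. Of 6 neutrophil markers tested 3 were lower, with sums of 3.30 to 25.1 CPM in cardiomyocytes and 22.9 to 100.7 CPM in fibroblasts, and of 8 lymphocyte markers 4 were lower, with sums of 2.47 to 17.9 CPM in cardiomyocytes and 8.89 to 39.8 CPM in fibroblasts. Of 10 endothelial markers 2 were lower, Cldn5 (−2.39) and Tie1 (−0.81), while the sums overlapped, at 802 to 2744 CPM in cardiomyocytes and 1194 to 2337 CPM in fibroblasts. All 8 smooth muscle markers were higher, with sums of 418 to 1810 CPM in cardiomyocytes and 153 to 752 CPM in fibroblasts. Tg mouse 3 had the lowest macrophage sum and the lowest erythroid sum in both cell types, and the lowest Hmox1 in both. The part of these cells in the members' levels was not tested.

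**Figure D2:**
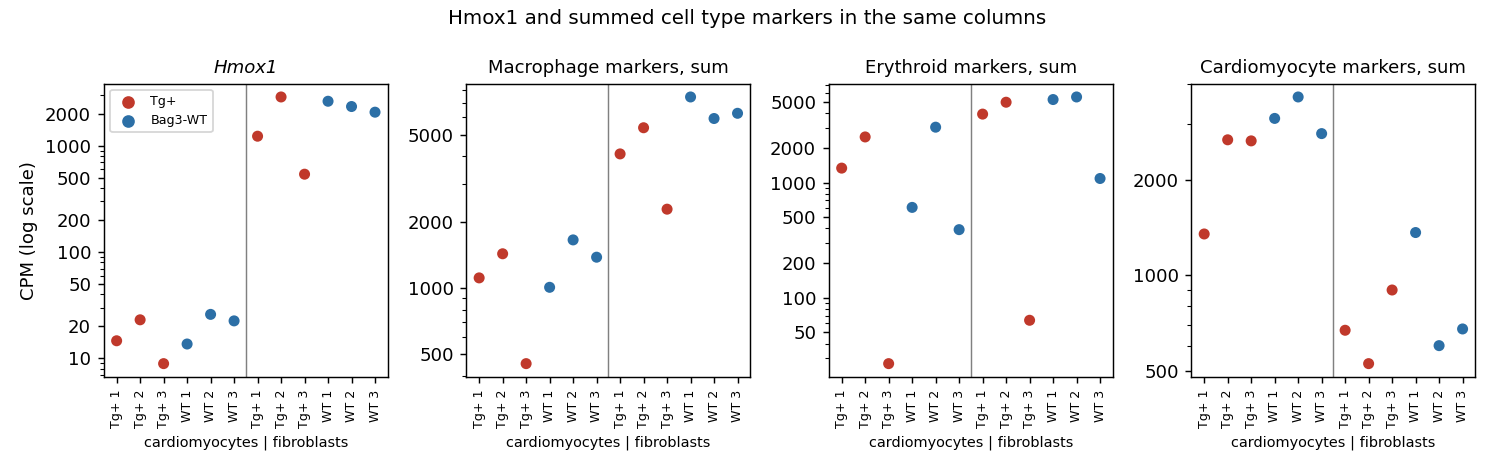
Hmox1 and the summed levels of macrophage, erythroid and cardiomyocyte markers (CPM, log axes) in the 6 cardiomyocyte columns (left of the line) and the 6 fibroblast columns (right of it), Tg+ in red and Bag3-WT in blue. Tg mouse 3 is lowest for Hmox1, macrophage and erythroid genes in both cell types.

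Srxn1 and Txnrd1 serve the thioredoxin system. Srxn1 (ENSMUSG00000032802.8, chromosome 2, 152105516 to 152111376, plus strand) encodes sulfiredoxin, which repairs overoxidised peroxiredoxins. It had 9.01, 10.3 and 6.18 CPM in Tg+ cardiomyocytes and 9.95, 14.5 and 8.12 CPM in Bag3-WT cardiomyocytes. Fibroblasts held 308, 686 and 180 CPM in Tg+ mice and 406, 614 and 497 CPM in Bag3-WT mice. The groups were far apart, and the log2 fold change was −5.46 (SE 0.26, edgeR adjusted p = 3.91e-07, lower in 6 of 6 mice).

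Txnrd1 (ENSMUSG00000020250.10, chromosome 10, 82833951 to 82897712, plus strand) encodes the cytosolic thioredoxin reductase. It had 29.3, 41.0 and 53.7 CPM in Tg+ cardiomyocytes and 51.97, 28.1 and 41.8 CPM in Bag3-WT cardiomyocytes. Fibroblasts held 452, 735 and 371 CPM in Tg+ mice and 612, 623 and 617 CPM in Bag3-WT mice. The Bag3-WT fibroblasts lay close together and the Tg+ fibroblasts on both sides of them. The log2 fold change was −3.81 (SE 0.26, edgeR adjusted p = 2.30e-06, lower in 6 of 6 mice), and −2.48 (limma adjusted p = 0.00597) in the authors' normalized table. Within each genotype that table did not call it, with −2.28 in Tg+ mice (limma adjusted p = 0.0845) and −2.67 in Bag3-WT mice (adjusted p = 0.0503).

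Nqo1 (ENSMUSG00000003849.8, chromosome 8, 107388225 to 107403206, minus strand) encodes the quinone reductase that is widely used as a readout of NRF2. It had 3.397, 10.1 and 22.3 CPM in Tg+ cardiomyocytes and 3.86, 4.98 and 11.4 CPM in Bag3-WT cardiomyocytes. Fibroblasts held 2.89, 3.63 and 2.87 CPM in Tg+ mice and 2.68, 3.69 and 3.23 CPM in Bag3-WT mice. The fibroblast values kept to a narrow band, while cardiomyocytes spread from that band upwards. Nqo1 was higher in cardiomyocytes in 6 of 6 mice (log2 fold change 1.24, SE 0.37, edgeR adjusted p = 0.0176). The call was lost without Tg mouse 2 (1.179, edgeR adjusted p = 0.0561) or WT mouse 3 (1.11, adjusted p = 0.0648), and with library size as the only scaling (0.35, adjusted p = 0.512), which is 1.30 above the median of all genes at that scaling.

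Slc7a11, Gclc and Gclm supply glutathione. Slc7a11 (ENSMUSG00000027737.10, chromosome 3, 49892526 to 50443614, minus strand) encodes the cystine importer xCT. It was near the limit of detection in cardiomyocytes, with 20, 10 and 11 counts in Tg+ mice and 21, 2 and 8 counts in Bag3-WT mice, or 0.237 to 3.12 CPM. Fibroblasts held 32.5, 66.6 and 17.0 CPM in Tg+ mice and 65.6, 49.9 and 42.5 CPM in Bag3-WT mice. All fibroblast values lay above all cardiomyocyte values (log2 fold change −5.35, SE 0.44, edgeR adjusted p = 6.08e-06, lower in 6 of 6 mice). In WT mouse 2, whose cardiomyocytes had 2 counts, the fibroblast level was 211 times as high, with an exact 95% counting interval of 58.2 to 1741.

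Gclc (ENSMUSG00000032350.9, chromosome 9, 77754535 to 77794485, plus strand) encodes the catalytic subunit of glutamate-cysteine ligase, the rate-limiting enzyme of glutathione synthesis. It had 10.7, 17.8 and 36.7 CPM in Tg+ cardiomyocytes and 9.21, 16.0 and 11.3 CPM in Bag3-WT cardiomyocytes. Fibroblasts held 79.8, 140 and 89.3 CPM in Tg+ mice and 78.3, 108 and 105 CPM in Bag3-WT mice. The cell types did not overlap, and Tg mouse 3 stood above the other cardiomyocyte values. The log2 fold change was −2.71 (SE 0.27, edgeR adjusted p = 2.26e-05, lower in 6 of 6 mice).

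Gclm (ENSMUSG00000028124.15, chromosome 3, 122245557 to 122270732, plus strand) encodes the modifier subunit of the same ligase. It had 12.2, 17.2 and 21.2 CPM in Tg+ cardiomyocytes and 19.3, 11.6 and 9.18 CPM in Bag3-WT cardiomyocytes. Fibroblasts held 60.5, 129.5 and 28.2 CPM in Tg+ mice and 91.5, 96.4 and 94.6 CPM in Bag3-WT mice. Tg mouse 3 was the nearest to an overlap, with 21.2 CPM in cardiomyocytes and 28.2 CPM in fibroblasts. The log2 fold change was −2.41 (SE 0.35, edgeR adjusted p = 3.17e-04, lower in 6 of 6 mice). In the authors' normalized table it was −0.68 and was not called (limma adjusted p = 0.473). In that table Tg mouse 3 was higher in cardiomyocytes, with values of 1098.55 and 1212.22 in its libraries against 100.736 in fibroblasts. The other 5 mice were lower, with 68.5317 to 230.421 in cardiomyocyte libraries and 247.816 to 468.262 in fibroblasts. The part of Tg mouse 3 in the lost call was not tested. Gclc counts were 3.16 times Gclm counts in Tg mouse 3 fibroblasts, against 0.856 to 1.32 times in the other 5 fibroblast columns.

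Osgin1 (ENSMUSG00000074063.10, chromosome 8, 119434124 to 119446256, plus strand) encodes an oxidative stress induced growth inhibitor. It had 3.397, 5.84 and 3.71 CPM in Tg+ cardiomyocytes and 2.38, 3.44 and 3.20 CPM in Bag3-WT cardiomyocytes. Fibroblasts held 25.3, 38.7 and 10.2 CPM in Tg+ mice and 25.7, 38.1 and 28.2 CPM in Bag3-WT mice. All cardiomyocyte values were below all fibroblast values (log2 fold change −2.86, SE 0.27, edgeR adjusted p = 1.73e-05, lower in 6 of 6 mice).

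**Figure D3:**
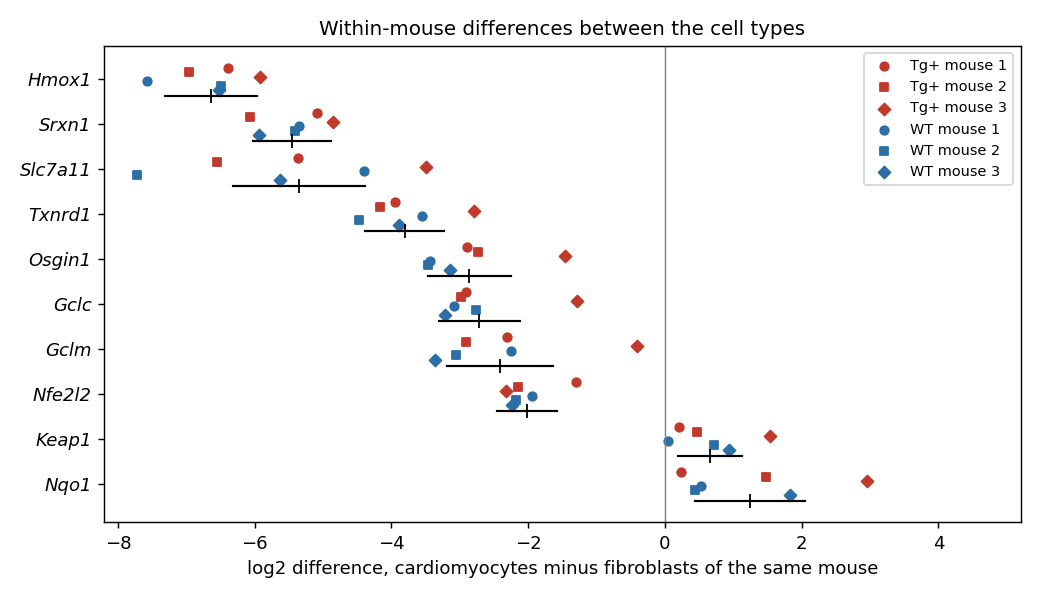
Log2 difference of cardiomyocytes minus fibroblasts of the same mouse for each member (points, Tg+ in red and Bag3-WT in blue), with the fitted log2 fold change and its 95% interval over 6 mice (black). Keap1 and Nqo1 lie above 0 and the other 8 members below 0 in all 6 mice at this scaling, where library size alone turns Keap1 to −0.25. The leftmost Slc7a11 point rests on 2 cardiomyocyte counts.

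Per kilobase of the longest annotated transcript, the order of the members differed between the cell types. The order holds for this length only, and a shorter transcript would raise a member's value. Slc7a11, for example, has protein-coding transcripts of 2419 to 9223 bases and Gclm of 292 to 5589 bases. In cardiomyocytes the first 4 members overlapped, namely Nfe2l2 (15.6 ± 4.25 CPM per kb, SD, n = 6), Keap1 (12.0 ± 2.80), Hmox1 (11.6 ± 4.24) and Txnrd1 (11.3 ± 2.99). Nqo1 (6.01 ± 4.61), Gclc (4.95 ± 2.99), Srxn1 (3.44 ± 0.984), Gclm (2.70 ± 0.855) and Osgin1 (1.83 ± 0.578 CPM per kb) followed, each overlapping its neighbour. With its longest transcript Slc7a11 was last with 0.131 ± 0.111 CPM per kb and overlapped none. In fibroblasts Hmox1 led with 1237 ± 567 CPM per kb (SD, n = 6), above all values of Srxn1 (159 ± 67.5) and Txnrd1 (157 ± 36.5), which did not differ beyond their spread. Nfe2l2 (62.2 ± 12.6) and Gclc (29.3 ± 6.82 CPM per kb) came next. From Gclc downwards each member overlapped the next, in the order Gclm (14.9 ± 6.23), Osgin1 (13.8 ± 5.19), Keap1 (7.50 ± 1.12), Slc7a11 (4.95 ± 2.09) and Nqo1 (2.04 ± 0.272 CPM per kb). Together the members took 0.0548 to 0.0696% of nuclear counts in cardiomyocytes, below the 0.344 to 1.04% they took in fibroblasts.

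The contrast of the cell types was also read within each genotype. In Tg+ mice 8 members were lower in cardiomyocytes and 0 were higher (edgeR adjusted p < 0.05), where 13.4% of all genes tested were lower and 6.6% higher. In Bag3-WT mice 8 were lower, again all but Keap1 and Nqo1, and 0 were higher, where 14.9% of all genes were lower and 8.5% higher. Keap1 was at 0.73 in Tg+ mice (edgeR adjusted p = 0.135) and 0.57 in Bag3-WT mice (adjusted p = 0.223). Nqo1 was at 1.55 in Tg+ mice (edgeR adjusted p = 0.0683) and 0.94 in Bag3-WT mice (adjusted p = 0.224). In Tg+ mice Gclm (−1.91, edgeR adjusted p = 0.0204) was not called without Tg mouse 1 (−1.68, adjusted p = 0.0783) or without Tg mouse 2 (−1.38, adjusted p = 0.156), and stood at −2.62 without Tg mouse 3. Tested on the authors' normalized values, 6 members were lower in each genotype, all of the 8 but Txnrd1 and Gclm, and Gclm was at 0.02 in Tg+ mice (limma adjusted p = 0.992) and −1.38 in Bag3-WT mice (adjusted p = 0.368). Slc7a11 in Tg+ mice (−5.19) was at −4.51 without Tg mouse 2 and −5.89 without Tg mouse 3. In Bag3-WT mice Slc7a11 (−5.54) was at −6.41 without WT mouse 1 and −4.95 without WT mouse 2.

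By genotype, no member differed between Tg+ and Bag3-WT cardiomyocytes past the test's threshold, and 0% of the 12439 genes tested did (edgeR, 3 against 3 mice, lowest adjusted p = 1.00, 89 genes at an unadjusted p under 0.05). The values of Tg+ and Bag3-WT mice overlapped for all 10 members, and the share of all genes that overlap was not counted. Gclc averaged 21.7 ± 13.5 CPM in Tg+ cardiomyocytes and 12.2 ± 3.47 CPM in Bag3-WT cardiomyocytes (SD, n = 3 each, log2 fold change 0.81, 95% interval −0.28 to 1.90), and without Tg mouse 3 its log2 fold change was 0.23. Nqo1 averaged 11.9 ± 9.56 CPM in Tg+ cardiomyocytes and 6.75 ± 4.09 CPM in Bag3-WT cardiomyocytes (0.79, 95% interval −0.78 to 2.36), and without Tg mouse 3 its log2 fold change was −0.01. Hmox1 averaged 15.6 ± 7.11 CPM in Tg+ cardiomyocytes and 20.7 ± 6.34 CPM in Bag3-WT cardiomyocytes (−0.41, 95% interval −1.38 to 0.57, and −0.13 without Tg mouse 3). The regulator Nfe2l2 averaged 38.3 ± 16.3 CPM in Tg+ cardiomyocytes and 38.9 ± 3.42 CPM in Bag3-WT cardiomyocytes (−0.02, 95% interval −0.90 to 0.86, and 0.28 without Tg mouse 3). The widest interval belonged to Slc7a11 (−0.50, 95% interval −2.76 to 1.76), the member with the fewest counts. The other 5 lay between −0.35 (Srxn1) and 0.52 (Osgin1). Among these, Keap1 (0.09) and Txnrd1 (0.02) turned to −0.11 and −0.20 without Tg mouse 3. The summed levels of the cardiomyocyte markers in these columns were 1349 to 2667 CPM in Tg+ mice and 2789 to 3636 CPM in Bag3-WT mice and did not overlap. At TMM scaling all 13 had a negative log2 fold change (median −0.63, Ryr2 −1.06), and none was called. Their part in the members' values was not tested.

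In fibroblasts no member differed by genotype past the threshold either, and 0% of 13571 genes did (edgeR, lowest adjusted p = 0.768, 690 genes at an unadjusted p under 0.05). Of the 10 log2 fold changes 9 were negative, with a median of −0.28 against 0.01 over all genes tested. The genotypes overlapped for all 10 members, again with no share over all genes counted. Without Tg mouse 3 only 5 were negative and the median was 0.02, with Srxn1 at −0.00336 and Slc7a11 at −0.06. With library size as the only scaling 2 were negative, at a median of 0.36 over all genes. Hmox1 averaged 1545 ± 1197 CPM in Tg+ fibroblasts and 2337 ± 276 CPM in Bag3-WT fibroblasts (log2 fold change −0.58, 95% interval −1.88 to 0.72, edgeR adjusted p = 0.820). It was −1.39 without Tg mouse 2 and −0.17 without Tg mouse 3. Srxn1 averaged 391 ± 264 CPM in Tg+ fibroblasts and 506 ± 104 CPM in Bag3-WT fibroblasts (−0.36, 95% interval −1.46 to 0.73). Slc7a11 averaged 38.7 ± 25.4 CPM in Tg+ fibroblasts and 52.7 ± 11.8 CPM in Bag3-WT fibroblasts (−0.43, 95% interval −1.46 to 0.60). Gclc was the member with a positive value, 103 ± 32.6 CPM in Tg+ fibroblasts and 97.3 ± 16.5 CPM in Bag3-WT fibroblasts (0.10, 95% interval −0.53 to 0.72).

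The Tg+ fibroblasts differed among themselves. Tg mouse 2 was the highest of the 6 fibroblast columns for 9 members, all but Nqo1, and Tg mouse 3 the lowest for 8, all but Nqo1 and Gclc. The share of all genes with such extremes was not counted in either cell type. Macrophage markers showed the same order among the Tg+ mice, with sums of 4093, 5385 and 2293 CPM in Tg mice 1 to 3, and 5932 to 7436 CPM in Bag3-WT fibroblasts. All 13 macrophage markers had a negative log2 fold change by genotype in fibroblasts, with a median of −0.74, and none was called. All 10 endothelial markers had a positive one (median 0.45, none called), with sums of 1640 to 2337 CPM in Tg+ fibroblasts and 1194 to 1450 CPM in Bag3-WT fibroblasts. The part of both lists in the members' values was not tested. In cardiomyocytes Tg mouse 3 was the lowest of the 6 for Nfe2l2, Hmox1 and Srxn1 and the highest for Keap1, Nqo1, Gclc, Gclm and Txnrd1.

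**Figure D4:**
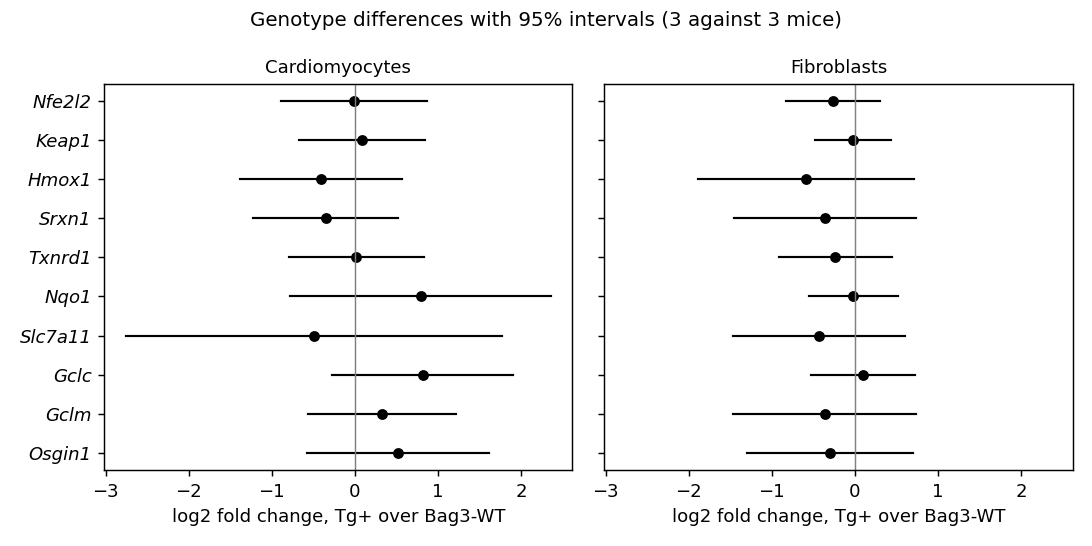
Log2 fold change of Tg+ over Bag3-WT mice for each member in cardiomyocytes (left) and fibroblasts (right), with 95% intervals from the edgeR fits over 3 against 3 mice. Every interval crosses 0. Those of cardiomyocytes reach from −2.76 to 2.36 and those of fibroblasts from −1.88 to 0.74.

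The difference between the genotypes in the contrast of the cell types was tested as an interaction over the same 12 columns, and 0% of 13891 genes passed (edgeR, 124 genes at an unadjusted p under 0.05). All 10 members had a positive value, with a median of 0.39 against 0.00 over all genes, and none was called. Osgin1 had the lowest p of the 10 (0.94, SE 0.47, edgeR adjusted p = 1.00). Without Tg mouse 3 only 5 members were positive and the median was 0.04. In each of 4 other settings 1 member was negative, namely Nfe2l2 (−0.096) without Tg mouse 1, Keap1 (−0.096) without WT mouse 1, and Slc7a11 without WT mouse 2 (−0.24) and with rep1 libraries alone (−0.24).

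Other genes of the pathway were read from 3 lists. Of 37 further NRF2 targets 31 were tested, and 15 of these were lower and 5 higher in cardiomyocytes than in fibroblasts (median −0.55), where 24.9% and 19.7% of all genes were. The 4 with the lowest p were the transporter gene Abcc1, the peroxiredoxin gene Prdx1 and the ferritin genes Ftl1 and Fth1, whose products store iron. Ftl1 averaged 686 ± 220 CPM in cardiomyocytes and 3562 ± 876 CPM in fibroblasts (SD, n = 6 each, log2 fold change −2.43, SE 0.23, edgeR adjusted p = 1.58e-05). Fth1 averaged 518 ± 187 CPM in cardiomyocytes and 2387 ± 687 CPM in fibroblasts (−2.25, SE 0.22). Abcc1 stood at −2.79 (SE 0.25) and Prdx1 at −2.19 (SE 0.21). The 5 that were higher, named after their values were seen, were the glutathione transferase genes Gsta4 (1.92) and Gstm2 (0.97), the carbonyl reductase genes Cbr1 (1.09) and Cbr3 (0.70) and the malic enzyme gene Me1 (0.68). Ftl1 and the glutathione transferases have close paralogs or pseudogenes among which reads can be split, so their values are uncertain.

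Of 20 genes listed for NRF2 regulation, 7 were lower and 2 higher in cardiomyocytes (median −0.35), again beside 24.9% lower and 19.7% higher of all genes. The list also holds the related factor genes Nfe2, Nfe2l1, Nfe2l3 and Bach2. Sqstm1, which encodes the autophagy receptor p62 that binds KEAP1, averaged 149 ± 25.4 CPM in cardiomyocytes and 1824 ± 544 CPM in fibroblasts (log2 fold change −3.57, SE 0.24, edgeR adjusted p = 1.69e-06). Bach1, the repressor that competes with NRF2 at target genes such as Hmox1, averaged 17.0 ± 5.42 CPM in cardiomyocytes and 176 ± 21.7 CPM in fibroblasts (−3.43, SE 0.26). The small MAF genes Mafk (−2.72, SE 0.19) and Maff (−3.22, SE 0.30) were also lower. The 2 that were higher, named after their values were seen, were Btrc (0.80), which encodes a ubiquitin ligase subunit that also degrades NRF2, and Dpp3 (1.08), whose product binds KEAP1. The lower genes included small MAF partners of NRF2 (Mafk, Maff and, named after its value was seen, Mafg at −2.29) and its competitor Bach1.

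Of 23 other antioxidant enzymes, 2 were lower and 5 higher in cardiomyocytes (median 0.27), beside the same shares of all genes. Sod2, the superoxide dismutase of mitochondria, averaged 53.0 ± 14.1 CPM in cardiomyocytes and 134 ± 23.9 CPM in fibroblasts (log2 fold change −1.37, SE 0.21, edgeR adjusted p = 4.15e-04). The glutaredoxin gene Glrx was the other (−1.47, SE 0.25). Gpx4, which reduces lipid peroxides, averaged 125 ± 23.2 CPM in cardiomyocytes and 75.2 ± 15.2 CPM in fibroblasts (0.73, SE 0.18, edgeR adjusted p = 0.00683). Msrb2, a methionine sulfoxide reductase gene, stood at 1.37 (SE 0.30). No gene of these 3 lists was called by genotype in either cell type (edgeR), and of the genes tested 0 in cardiomyocytes and 3 in fibroblasts had an unadjusted p under 0.05.

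The members' mean profile over the 12 columns was compared with 8874 genes by the root mean square of the log2 differences after centring. The 5 nearest genes were Slc3a2 (0.238), Ier5 (0.252), Stap1 (0.256), Ugcg (0.273) and Mapkapk2 (0.290). Slc3a2, which encodes the heavy chain that partners xCT at the membrane, averaged 50.8 CPM in cardiomyocytes and 450 CPM in fibroblasts. Among the members themselves Osgin1 lay nearest to the mean profile (0.258), and Hmox1 (1.95) and Nqo1 (2.00) lay farthest from it.

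Slc7a11, Txnrd1 and Gclm differed between the 2 deposited tables. The authors' normalized table divides each count by a factor that differs between genes and libraries. For Slc7a11, Txnrd1 and Gclm this factor in cardiomyocytes was 0.362, 0.408 and 0.424 of that in fibroblasts, relative to the library's median. Over 13412 genes the median was 1.01, and 1.16%, 1.51% and 1.65% of genes lay lower than these 3. For the other 7 members the ratio was 0.958 to 1.06. Slc7a11 has 2 protein-coding transcripts of 2419 to 9223 bases in GENCODE M21, Txnrd1 has 5 of 581 to 3622 bases and Gclm has 5 of 292 to 5589 bases.

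**Figure D5:**
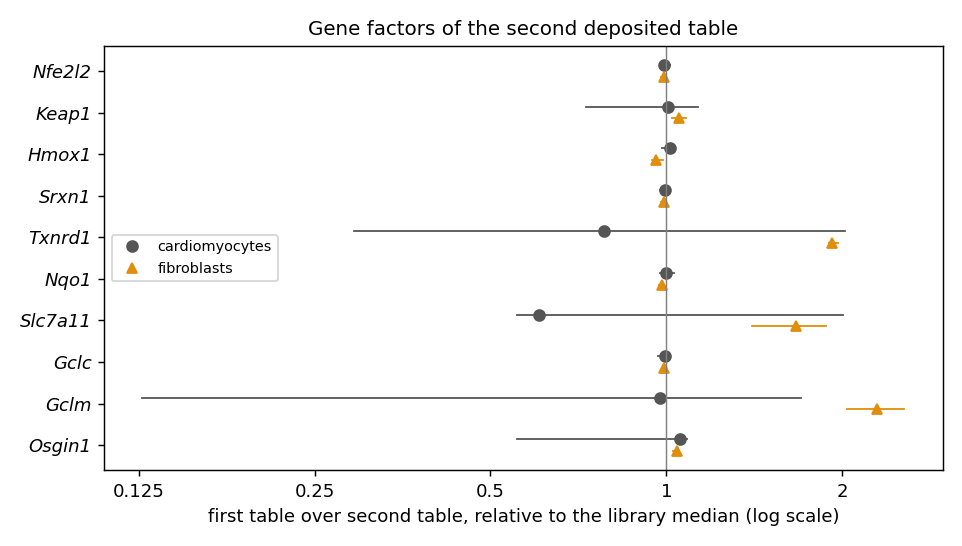
Factor between the authors' 2 tables for each member, relative to the median of its library (log axis), in cardiomyocytes (grey) and fibroblasts (orange). Points are medians over the libraries and lines run from the lowest to the highest library. Txnrd1, Slc7a11 and Gclm stand apart, with fibroblast factors above 1 and a wide range in cardiomyocytes.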

How the data were processed

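Messenger RNA of isolated cardiomyocytes and cardiac fibroblasts was captured on oligo(dT) beads and sequenced on Illumina machines, per the labels' protocols. The first deposited table held expected counts per gene, which the authors estimated (44.7% of the values were not whole numbers), and the number of columns left without a sample was 0. The build GRCm38.p6 and the tools DESeq2 1.18.1, kallisto 0.44.0 and R 3.4.4 appear, with no role or order, per the submitters' processing notes. The other deposited table held a signal normalized by the authors, read from its values as the count over a factor per gene and library, and was used only as an alternative, with limma on log2(value + 1). The sources used here do not state strand, annotation or the step from transcripts to genes.

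Expected counts of rep1 and rep2 were summed per mouse, rounded to whole numbers and tested with edgeR 4.0.16 (R 4.3.3) by filterByExpr, TMM, robust glmQLFit and glmQLFTest, two-sided, with Benjamini-Hochberg adjustment over all genes tested and a threshold of 0.05. Cell type was tested with the mouse as block, genotype in each cell type alone, and their interaction with the mouse as block. The common biological coefficient of variation was 0.495 and 0.284 for genotype in cardiomyocytes and fibroblasts, 0.361 for cell type and 0.381 for the interaction. The animal codes of Tg mouse 1 and WT mouse 1 share their first part, and the labels do not say what it stands for or whether mice were littermates. Intervals of fold changes are at 95%. CPM values were scaled over all 12 columns, while the genotype fits were scaled within a cell type. Alternatives included DESeq2 1.42.0 and limma 3.58.1 with voom.

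The mouse pairs the 2 cell types, per the labels. For Tg mouse 3 the counts of Ddx3y and Eif2s3y differed between its 2 cell types, so the pairing of its columns is uncertain and was not tested. The repeat number pairs no mice: same-numbered cardiomyocyte libraries of the 2 genotypes deviated together at a mean correlation of 0.0178 (−0.403 to 0.376, 18 pairs). Repeats of a mouse correlated at 0.889 to 0.959 (6 pairs), and libraries of different mice at 0.693 to 0.923 (60 pairs).

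The members, the lists and the tests were chosen with earlier results of these data known. All members were named. From each of the 3 pathway lists the 4 genes with the lowest p among those called for cell type were named, with any called by genotype. The 5 genes most like the members had to average at least 5 CPM over the 12 columns. GENCODE M21 (GRCm38) gave positions and held 17533 of 19094 symbols.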

Additional observations from a re-analysis of the deposited data

Results flagged for a closer look

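Each of the 10 members was checked for a value far from the others in 3 groups of 6 mice (cardiomyocyte levels, fibroblast levels, and log2 differences of cardiomyocytes minus fibroblasts), 30 groups in all. In 4 of them the highest or lowest mouse stood apart by Dixon's 95% limit of 0.625 for 6 values. For separate groups chance gives about 1 in 20. The 30 groups share values, since each log2 difference is made from the levels, so the 4 cannot be set against that rate. Tg mouse 3, whose pairing is uncertain by its Y-linked counts, accounts for 3 of the 4. Its Gclc level in cardiomyocytes was 36.7 CPM, against 9.21 to 17.8 CPM in the other 5 mice. Its log2 difference of cardiomyocytes minus fibroblasts was −1.283 for Gclc, against −3.22 to −2.76 in the others, and −1.466 for Osgin1, against −3.47 to −2.73. The fourth was the log2 difference of Nfe2l2 in Tg mouse 1 (−1.306), against −2.33 to −1.95 in the others. Its Dixon ratio of 0.625 was at the limit.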

How the results depend on the processing

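The 8 lower calls between the cell types held in direction and threshold for 7 members under every alternative run, and for Gclm under all but the second deposited table. Within a genotype the second table lost Txnrd1 and Gclm in both, which left 6 of 8. Without the mouse as a replicate block (mice unpaired) 8 members were lower, 2 were higher and 6557 genes were called, against 6190. The repeat number as a replicate block in cardiomyocytes left 0 genes called by genotype, with Hmox1 at −0.42 and Gclc at 0.65. No member was called by genotype or in the interaction under any alternative. Low counts limit Slc7a11 in cardiomyocytes, and it was not tested by genotype there with mitochondrial genes left out, nor were Slc7a11 and Osgin1 in rep1 libraries alone. For the changes below the cause was not tested, unless the setting itself removes samples.

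With library size as the only scaling, the median of all genes moved to −0.95 for cell type, 0.84 for genotype in cardiomyocytes and 0.36 in fibroblasts. Genes called by genotype were then 2 in cardiomyocytes and 2 in fibroblasts, and 1 in the interaction. Of the members 0 were called higher for cell type, with Keap1 at −0.2494 (−0.01544 in Tg+ and −0.4845 in Bag3-WT mice) and Nqo1 in Bag3-WT mice at −0.1144. By genotype in cardiomyocytes Nfe2l2 was at 0.996, Hmox1 at 0.3947, Srxn1 at 0.5849 and Slc7a11 at 0.4026. In fibroblasts Nfe2l2 was at 0.06526, Keap1 at 0.3235, Nqo1 at 0.268, Gclm at 0.01375, Txnrd1 at 0.1202, Slc7a11 at 0.04352 and Osgin1 at 0.0065. DESeq2 called 3 genes by genotype in cardiomyocytes, 6 in fibroblasts and 1 in the interaction. In Tg+ mice DESeq2 and voom each called 1 member higher in cardiomyocytes, Nqo1. Voom put Slc7a11 by genotype in cardiomyocytes at 0.01021. In the second table, of the members 1 was higher for cell type, Gclm in Tg+ mice was at 0.01953, and by genotype in cardiomyocytes Slc7a11 was at 0.004152 and Osgin1 at −0.04761. Txnrd1 by genotype in cardiomyocytes was −0.2985 in rep1 libraries and −0.05225 with the code letter as a term. The letter put Keap1 at 0.02277 and Nqo1 at 0.1089 in fibroblasts. Slc7a11 in the interaction was −0.2402 in rep1 libraries.

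Leaving out 1 mouse at a time gave 0 to 2 members higher for cell type and 0 to 1 in Tg+ mice. Genes called for cell type were then 963 (without Tg mouse 2) to 2617 in Tg+ mice, against 2782 with all mice. In Bag3-WT mice they were 1166 (without WT mouse 3) to 4531 (without Tg mouse 3), against 3251, with 1607 without WT mouse 1 and 1840 without WT mouse 2. Ranges that crossed 0 by genotype in cardiomyocytes were −0.2949 to 0.2844 for Nfe2l2, −0.1081 to 0.2503 for Keap1, −0.005984 to 1.391 for Nqo1, −0.2001 to 0.2487 for Txnrd1 and −0.9951 to 0.8324 for Slc7a11. In fibroblasts they were −0.1321 to 0.1705 for Keap1, −0.141 to 0.105 for Nqo1, −0.1927 to 0.2519 for Gclc, −1.074 to 0.0363 for Gclm and −0.7753 to 0.08459 for Osgin1. In the interaction they were −0.09555 to 0.4004 for Nfe2l2, −0.2304 to 0.4457 for Keap1, −0.008045 to 0.5855 for Srxn1, −0.07618 to 1.294 for Nqo1, −0.08218 to 0.6039 for Txnrd1 and −0.4034 to 1.219 for Slc7a11.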

Other observations

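The repeat libraries of cardiomyocytes were compared per mouse. The rep1 libraries held 1.22 to 5.64 M counts (M, 1e6) and the rep2 libraries 9.29 to 13.9 M. Of 60 pairs of a member and a mouse, 58 had overlapping exact 95% counting intervals for the level per 1e6 nuclear counts in rep1 and rep2. Both exceptions were Hmox1, named after their values were seen. Hmox1 had 31.8 per 1e6 in rep1 and 50.2 in rep2 of Tg mouse 1, and 17.0 (11 counts) in rep1 and 50.2 (81 counts) in rep2 of WT mouse 1. The labels mention a second round of sequencing for cardiomyocytes and do not tie it to the repeat numbers.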
